A study of Arabidopsis thaliana with 16 samples.

Results

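The 37 genes described here had lower transcript levels after 1 h of salt in each of 4 lengthwise zones of the Arabidopsis thaliana root. They were chosen by their values. On the scale log2(signal + 16), the mean of the NaCl arrays had to lie at least 0.6 below the mean of the standard arrays in every zone, and both NaCl arrays had to lie below both standard arrays there. Of the 13513 probe sets that name 1 gene, which stand for 13350 genes, 37 met the rule, each for a different gene; 3 further genes were set aside by the rule and are not analysed here. A further 33 probe sets met the same values but have no gene in the probe table, and 2 name several genes, so they are not described. The salt differences below are the values that chose the genes. They are given as a description, with no test, and no p-value is attached to them.

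Columbia seedlings were grown for 5 days on standard medium and moved for 1 h to medium with 140 mM NaCl or to fresh standard medium. The root was then cut from the tip upward into zone 1 (the outermost 150 µm or so), zone 2 (about 200 µm, to the approximate end of the meristem), zone 3 (200 to 300 µm, below the hairs) and zone 4 (about 1 mm, among the hairs). Each of the 8 groups, NaCl and standard in zones 1 to 4, had 2 Affymetrix ATH1 arrays, each from about 15 pooled sections, so one array averages several roots and all cell types of a zone. In such samples fewer cells of a type and less RNA per cell cannot be told apart.

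Salt reaches root cells as an osmotic shortage of water and as an excess of sodium ions. Within the first hours root growth slows, calcium and reactive oxygen signals spread, and the stress hormone abscisic acid accumulates. Genes for protective proteins are switched on in that time, and many others are turned down. Along the root, cells divide near the tip, then elongate, and form hairs further up.

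The arrays were alike in their trimmed means (2% left out at each end), but less so in their medians. Median signals per array ranged over 58.57 to 76.93, and the 2 arrays of a group correlated across probe sets at 0.9811 to 0.9859. Of 36 marker genes written for zones, cell types and salt, 6 were matched to a probe set in the probe annotation. That annotation names 1 gene for 13513 of 22810 probe sets, so the array may carry more of the markers. The hair cell expansin gene EXPA7 averaged 19.2, 44.7, 4779 and 1006 under NaCl in zones 1 to 4, against 25.2, 24.7, 2098 and 2672 on standard medium, so it stood higher under NaCl in zone 3 and lower in zone 4. EXPA18, the other hair cell marker, did the same, with 2699 and 1175 under NaCl in zones 3 and 4 against 1357 and 3952. AUR1, a kinase gene of dividing cells, averaged 451, 178, 102 and 224 under NaCl in zones 1 to 4, against 777, 273, 100 and 188 on standard medium, so it stood lower under NaCl in zones 1 and 2; its part in the differences there was not tested. LEA4-5, for a protective protein of dehydrating cells, averaged 98.9, 170, 948 and 2145 under NaCl in zones 1 to 4, against 4.39, 1.54, 7.12 and 66.7 on standard medium. The dehydrin gene LTI30 averaged 3744, 7874, 11054 and 12077 under NaCl, against 321, 886, 1758 and 5815. COR47, another dehydrin gene, averaged 3362, 2492, 13884 and 13861 under NaCl, against 3106, 392, 5358 and 12595, so its levels in zones 1 and 4 were close on both media.

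Across the 37 genes the median NaCl minus standard difference was -1.12 in zone 1, -1.10 in zone 2, -1.55 in zone 3 and -0.96 in zone 4, where -1 is a halving on the log2(signal + 16) scale. Over all 17099 tested probe sets the medians were 0.05, 0.02, -0.01 and -0.02. Averaged over the zones, the 37 genes ranged from -2.04 to -0.77, with a median of -1.24. The largest difference of a gene was in zone 3 for 20 genes, in zone 4 for 7, in zone 1 for 6 and in zone 2 for 4. The smallest was in zone 4 for 18 genes. Among all tested probe sets limma called 4.63%, 5.2%, 13.2% and 6.56% lower under NaCl in zones 1 to 4. The zone of the largest difference was not counted over all probe sets. The lead of zone 3 is therefore not read as particular to the list. Of the probe sets of 1 gene without those set aside, 0.274% met the rule, a share that the rule itself sets. A change under -1 was reached by 23, 22, 29 and 16 genes in zones 1 to 4.

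How even the differences were varied from gene to gene. The range between a gene's largest and smallest zone had a median of 0.79, and the median standard error of a difference within a zone was 0.24. A range over 4 zones exceeds 1 standard error on average even where all zones change alike, so the 2 are not directly comparable. Whether the differences were uneven was not tested. The range was under 0.5 in 9 genes and over 1 in 16. All 37 genes passed the limit on low signals described with the processing (2 arrays above 41.357), but 20 had a NaCl mean below that signal in at least 1 zone, and AT2G04500 and AT3G46810 had one in all 4. In those zones the size of the difference depends on the added constant.

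**Figure D1:**
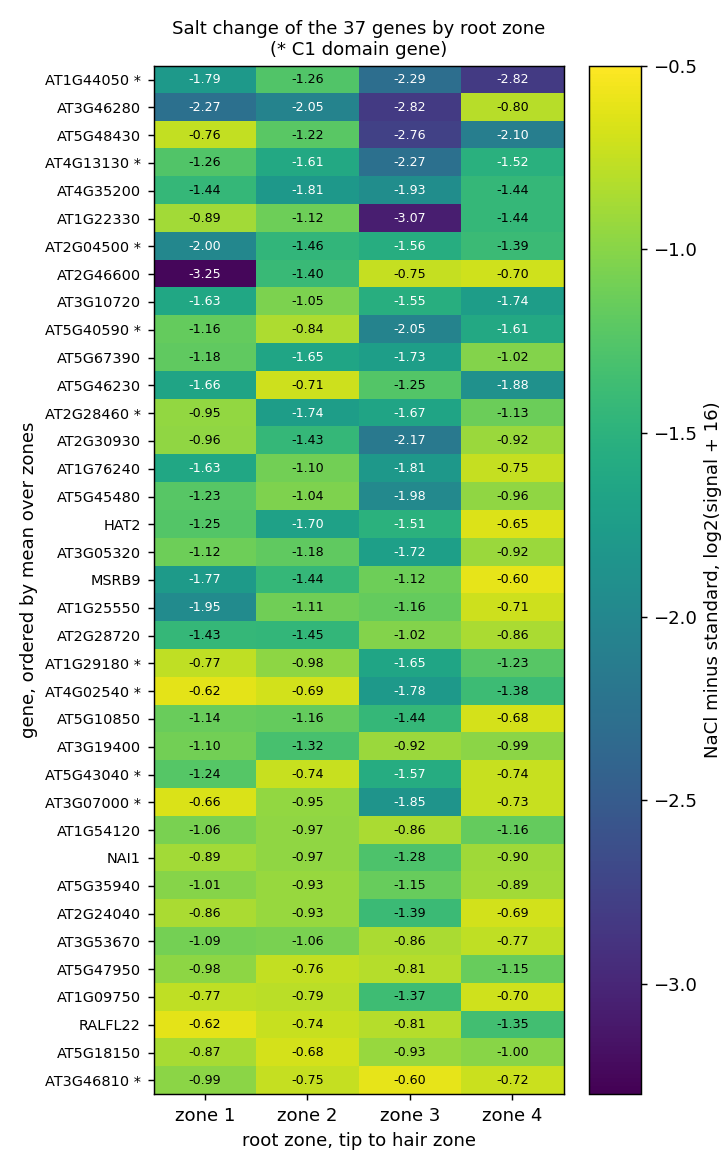
NaCl minus standard on the log2(signal + 16) scale for each of the 37 genes (rows, ordered by their mean over zones) in zones 1 to 4 (columns, tip to hair zone). Darker cells are larger decreases, the most negative being -3.25 for AT2G46600 in zone 1, and asterisks mark the 10 genes of the C1 domain family.

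Among the 37 genes, 33 carry only a locus tag in the probe annotation, and 4 (HAT2, MSRB9, NAI1 and RALFL22) have a name. The families given below for locus tags are general knowledge of the Arabidopsis genome and were not read from these files. By that knowledge 10 genes encode C1 domain proteins, 7 act or are likely to act in signalling or gene control, 10 encode enzymes or other proteins of a known family, and 10 have no role that can be stated here. The median of the mean difference over zones was -1.27, -1.28, -1.14 and -1.31 in these 4 classes.

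The largest single family was that of the C1 domain proteins, a plant family rich in cysteine and histidine whose zinc-binding fold resembles the lipid-binding C1 domain of animal protein kinase C. Few of its members have a known function. The 10 genes were AT1G29180, AT1G44050, AT2G04500, AT2G28460, AT3G07000, AT3G46810, AT4G02540, AT4G13130, AT5G40590 and AT5G43040. Their median difference was -1.08, -0.97, -1.73 and -1.30 in zones 1 to 4. In 6 of the 10 the difference was largest in zone 3, the zone with the highest share of lower probe sets over the array (13.2%).

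AT1G44050 had the most negative mean of all 37 genes. Its NaCl arrays gave signals of 8.6 and 6.18 in zone 1, 10.4 and 1.14 in zone 2, 51.4 and 48.1 in zone 3, and 27.0 and 16 in zone 4. Its standard arrays gave 56.5 and 74.2, 33.6 and 36.4, 221 and 418, and 259 and 234 in the same zones. The groups did not overlap in any zone, as the rule requires, and the highest NaCl value of all 8 arrays, 51.4, lay below 6 of the 8 standard values; only the standard arrays of zone 2 were lower. The differences were -1.79, -1.26, -2.29 and -2.82.

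AT4G13130 had a nearly even NaCl level along the root. Its NaCl arrays gave 58.4 and 55.3, 60.3 and 62.3, 72.1 and 93.8, and 90.7 and 53.9 in zones 1 to 4. On standard medium they gave 142 and 176, 212 and 229, 451 and 463, and 225 and 238. Every NaCl array lay below every standard array, whichever zones were set against each other. By limma's F test it differed between the standard zones (adjusted p = 2.99e-05) and did not pass between the NaCl zones (adjusted p = 0.197).

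AT2G28460 showed a similar evenness under NaCl, with 16.4 and 53.8, 44.1 and 40.4, 37 and 39.8, and 35.4 and 23.1 in zones 1 to 4, against 81.3 and 70.9, 177 and 181, 161 and 155, and 116 and 57.0 on standard medium. All 8 NaCl values lay below all 8 standard values. Most of its NaCl values were below 41.357, the signal used here as the lower limit for testing, so its differences of -0.95, -1.74, -1.67 and -1.13 depend on the added constant of 16.

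The other C1 genes differed in where the decrease was largest. AT5G40590 was 799 and 710 in standard zone 3, and NaCl arrays there gave 178 and 162 (-2.05). AT3G07000 and AT4G02540 had their largest differences in zone 3, at -1.85 and -1.78, and values of -0.66 and -0.62 in zone 1. AT2G04500 was the reverse, with -2.0 in zone 1 and -1.39 in zone 4. AT5G43040 and AT1G29180 reached -1.57 and -1.65 in zone 3. AT3G46810 was at the edge of the rule, with -0.99, -0.75, -0.60 and -0.72, and no array gave it a signal above 64.

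To see how the rest of the family behaved, 120 C1 loci were listed from general knowledge of the family. The family was picked because it stood out among the 37, so its count is not independent of them. Of these loci 92 had a probe set of their own in the probe annotation, and 63 besides the 10 were tested. With limma, averaged over the zones, 35 of the 63 (55.6%) were lower under NaCl, 3 (4.76%) were higher and 25 did not pass, against 15.3% lower and 15.6% higher among all 17099 tested probe sets. Without replicate 2 of zone 1 on either medium, replicate 1 of NaCl zone 2 or replicate 4 of standard zone 2, 1 was higher. The median difference of the 63 was -0.37, and that of all tested probe sets was 0.00. By zone, 9 of the 63 were lower in zone 1 (background 4.63%), 5 in zone 2 (5.2%), 26 in zone 3 (13.2%) and 19 in zone 4 (6.56%). The numbers that were higher were 1, 2, 0 and 1, against backgrounds of 5.01%, 6.19%, 12.6% and 5.5%. A gene could pass the limit on low signals through the arrays of 1 medium alone. AT3G11390 had group means above 41.357 only on standard medium, and AT1G62030 only under NaCl. Which of the family were tested thus depended in part on the values compared. With no limit on low signals, 34 of 82 were lower on average and 3 were higher. The share over all probe sets was not counted for that setting.

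Several of these relatives missed the rule in only 1 or 2 zones. They are named here after their values were seen, with limma's adjusted p. AT1G61840 averaged 2.38, 10.8, 87.9 and 1.82 under NaCl in zones 1 to 4, against 9.68, 99.7, 628 and 21.7 on standard medium, and its mean difference was -1.54 (SE 0.21, adjusted p = 2.78e-05). AT2G44370 had a mean difference of -1.44 (SE 0.13, adjusted p = 2.43e-07), with -0.58 in zone 4 just short of the threshold. AT2G02630 changed by -2.20 in zone 1 and -2.06 in zone 3, with -0.25 in zone 2 and -0.18 in zone 4. Its zone 4 means, 4.07 under NaCl and 6.76 on standard medium, were too low for -0.6 to be reached there. AT1G61840, AT2G44370 and AT2G02630 each had NaCl means below 41.357, so the sizes of their differences also depend on the added constant. AT3G06990, the gene next to AT3G07000, had -1.05, -0.74, -1.75 and -0.66 but its arrays overlapped in zone 4, with 4.45 and 7.58 under NaCl against 35.0 and 7.48 on standard medium. The exceptions, higher on average, were AT1G62030 by 0.52 (adjusted p = 0.0309) and AT2G21850 by 0.38 (adjusted p = 0.0216). AT3G13590 was higher too, by 0.35 (adjusted p = 0.0117). All group means of AT2G21850 lay between 115 and 318, above 41.357. The differences of AT1G62030 were 0.70, 0.00, 0.04 and 1.33 in zones 1 to 4. Only its NaCl mean in zone 4, 54.5, lay above 41.357, so the sizes depend on the added constant. Relatives in this family can be similar in sequence, and how far a probe set also reads a relative was not tested; none of the 37 probe sets is of the kind marked as matching several transcripts.

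**Figure D2:**
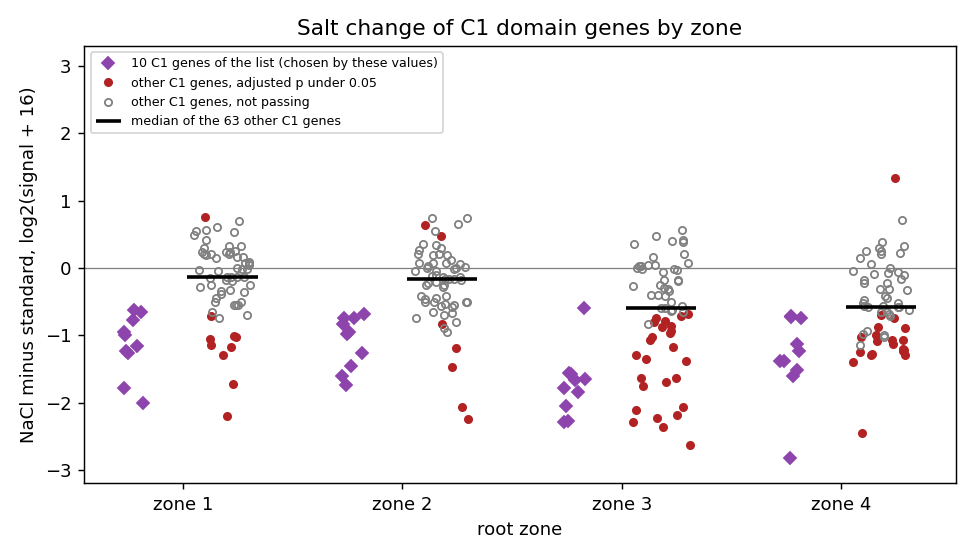
NaCl minus standard (log2(signal + 16)) in zones 1 to 4 for the 10 C1 domain genes among the 37 (diamonds, chosen by these values) and for 63 other C1 genes (circles, filled where the limma adjusted p is under 0.05; bars are their medians, -0.13, -0.17, -0.59 and -0.58). The filled circles below 0 number 9, 5, 26 and 19 in zones 1 to 4.

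Among the genes of signalling and gene control, AT2G46600 had a difference that was far larger at the tip than elsewhere. It encodes a calcium-binding protein of the EF-hand type, the helix-loop-helix fold with which cells read calcium signals. Its NaCl arrays gave 23.5 and 25.1 in zone 1, 435 and 503 in zone 2, 4203 and 3235 in zone 3, and 3137 and 2741 in zone 4. Its standard arrays gave 403 and 334, 1372 and 1160, 6513 and 5961, and 5681 and 4030. The difference was -3.25 at the tip and -1.40, -0.75 and -0.70 above it, a range of 2.55 that was the widest of the 37 genes, and the signal kept its order along the root on both media.

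AT3G46280, for a protein kinase-related protein, had differences under -2 in zones 1 to 3 and a smaller one in zone 4. The NaCl arrays gave 46.2 and 26.4, 41.7 and 18, 139 and 101, and 112 and 67.1 in zones 1 to 4, against 277 and 194, 144 and 194, 875 and 993, and 166 and 163 on standard medium. Standard zone 3 stood well above the other standard zones, and NaCl zone 3 lay below standard zone 4. The differences were -2.27, -2.05, -2.82 and -0.80.

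AT1G22330, for an RNA-binding protein, differed most in zone 3, at 46.2 and 45.7 under NaCl against 440 and 579 on standard medium (-3.07). In zone 1 its signals were close to the bottom of the range, with 7.12 and 0.807 against 12.6 and 30.7, so its place in the list rests on low values there. A second probe set of the gene, with no standard group mean above 68.4, gave 0.02, -0.94, -2.04 and -1.23 in zones 1 to 4, and so showed no decrease in zone 1. AT3G53670 also had a second probe set. It gave -0.18, -0.07, -0.28 and -0.23, with no standard group mean above 34.5, where the first gave -1.09, -1.06, -0.86 and -0.77. The other 35 genes have 1 probe set each in the probe annotation.

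HAT2 encodes a homeodomain-leucine zipper transcription factor whose gene is known to respond quickly to auxin, a hormone of root growth. Under NaCl it gave 132 and 120, 204 and 190, 279 and 339, and 229 and 133 in zones 1 to 4, against 357 and 288, 688 and 665, 1100 and 747, and 281 and 288 on standard medium. The differences were -1.25, -1.70, -1.51 and -0.65. The hair zone difference was the smallest and its NaCl arrays were the most spread.

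The other transcription factor genes differed in how even they were. AT1G25550, of the MYB-like transcription factors linked to nitrate supply, had -1.95 in zone 1 and -0.71 in zone 4. NAI1, a transcription factor of the basic helix-loop-helix class needed for endoplasmic reticulum bodies, had nearly the same difference throughout, at -0.89, -0.97, -1.28 and -0.90. On standard medium NAI1 was lowest in zone 3, at 65.6 and 106, where NaCl arrays gave 17.9 and 33.5.

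RALFL22 encodes a secreted peptide of the RALF family, whose members bind receptor kinases at the cell surface and act on the wall and on growth. It gave 243 and 288, 244 and 189, 1643 and 1005, and 1467 and 1285 under NaCl in zones 1 to 4, against 468 and 371, 399 and 343, 1899 and 2711, and 3907 and 3168 on standard medium. It was the only one of the 7 regulators with its largest difference in zone 4 (-1.35). The other RALF genes were looked at because RALFL22 was in the list. Of 6 tested, 5 were lower on average and 1, RALFL32, was higher by 0.39 (adjusted p = 0.00227), against 15.3% lower and 15.6% higher among all tested probe sets. The largest mean difference was -0.85 in RALFL27 (adjusted p = 0.000471).

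**Figure D3:**
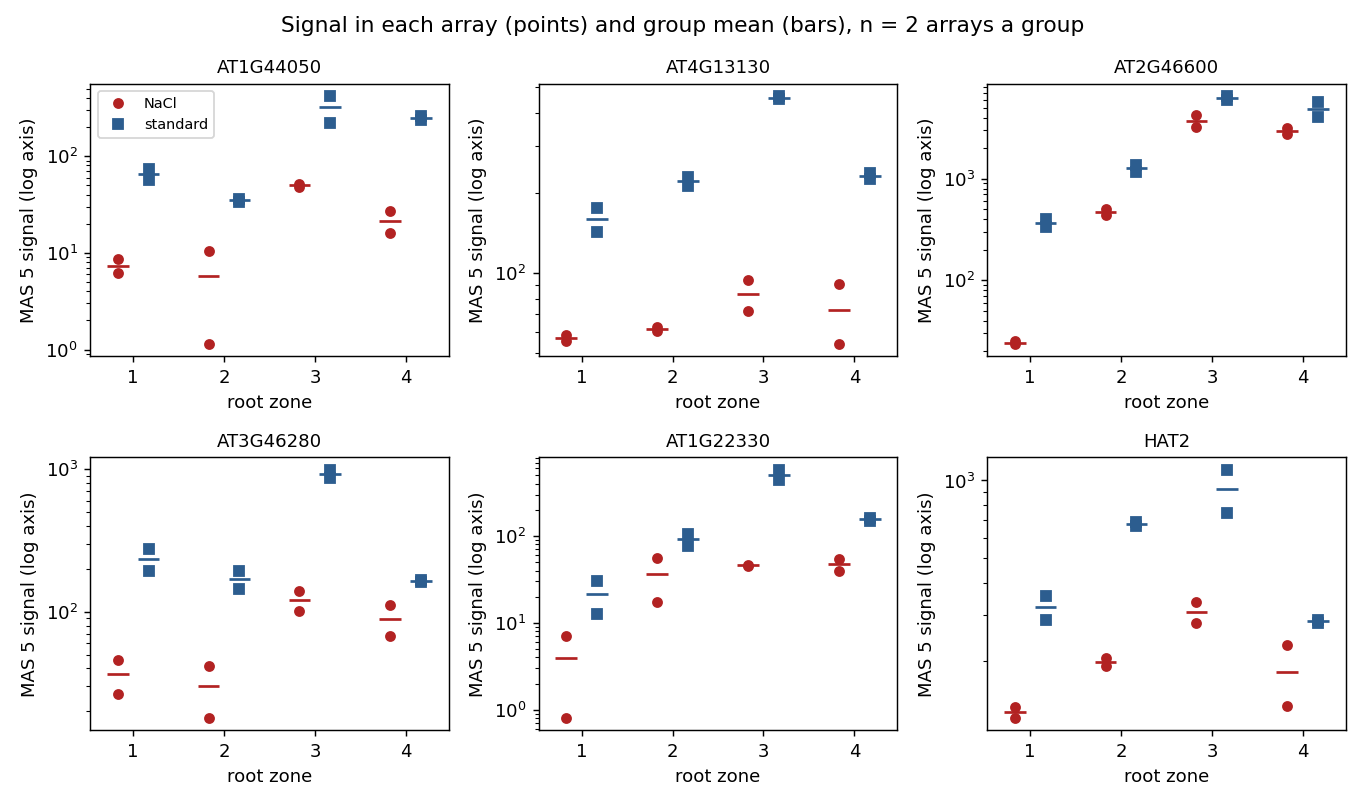
MAS 5 signal on a log axis in each of the 16 arrays for 6 of the 37 genes, by root zone, with NaCl (circles) left of standard (squares) and bars at the mean of 2 arrays. AT4G13130 has all NaCl arrays below all standard arrays, while AT2G46600 is highest in zone 3 on both media and differs most in zone 1.

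Among the genes placed with the enzymes and other known families, AT3G10720, a pectin methylesterase gene whose product acts on wall pectin, gave 524 and 424, 1142 and 1193, 564 and 575, and 7.94 and 3.27 under NaCl in zones 1 to 4. The standard arrays gave 1602 and 1400, 2550 and 2335, 1777 and 1626, and 72.8 and 42.2. The differences were -1.63, -1.05, -1.55 and -1.74, and the gene was low in zone 4 on both media. AT5G48430 and AT1G09750, both for aspartyl proteases, contrasted in form. AT5G48430 was highest in zone 4 and had -2.76 and -2.10 in zones 3 and 4. AT1G09750 was highest in zone 3 and had -1.37 there, with -0.70 to -0.79 in the other zones.

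The remaining genes of known families had differences between -0.60 and -1.77 in every zone. MSRB9, for a methionine sulfoxide reductase, an enzyme that repairs oxidised methionine, gave 808 and 724, 2031 and 1840, 3949 and 2667, and 1939 and 1922 under NaCl in zones 1 to 4, against 2575 and 2737, 4930 and 5628, 7626 and 6598, and 3771 and 2292 on standard medium. Its difference was smaller in each zone from the tip upward, at -1.77, -1.44, -1.12 and -0.60. Other genes of this enzyme class were looked at because MSRB9 was in the list. Of 4 tested, MSRB5 (-0.59, adjusted p = 0.000606) and MSRA5 (-0.32, adjusted p = 0.00892) were lower on average, and MSRB6 (-0.28, adjusted p = 0.112) and MSRB3 (0.20, adjusted p = 0.0918) did not pass; among all tested probe sets 15.3% were lower and 15.6% higher. In zone 3 alone MSRB3 was higher by 0.92 (adjusted p = 0.000615).

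AT3G05320, of the O-fucosyltransferase family, was another gene whose groups did not overlap across zones. Its NaCl arrays lay between 60.3 and 117 in all zones, and its standard arrays between 155 and 358. AT5G35940, a jacalin lectin gene, was a gene of the tip, with 1411 and 1256 under NaCl against 2866 and 2525 on standard medium in zone 1. Its 4 differences, -1.01, -0.93, -1.15 and -0.89, were the most even of the list, although its standard mean was 2696 in zone 1 and 47.5 in zone 3. Their range of 0.25 was smaller than the standard error of each, 0.35. Its NaCl mean in zone 3, 14.4, lay below 41.357. AT3G19400, for a cysteine protease, and AT5G47950, for an acyltransferase of the BAHD family, were both highest in zone 4 and had mean differences of -1.08 and -0.92. AT2G24040, of a family named for its response to low temperature and salt, averaged -0.97, and the histone H2B gene AT2G28720 averaged -1.19 with its larger values in zones 1 and 2 (-1.43 and -1.45).

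The 10 genes without a stated role had a median mean difference of -1.31, and no theme is named for them. AT4G35200 and AT1G76240, which belong to one plant family of unknown function, averaged -1.65 and -1.32. AT1G76240 gave 103 and 85.6, 330 and 279, 363 and 382, and 20.9 and 29.7 under NaCl in zones 1 to 4, against 315 and 331, 716 and 629, 1432 and 1261, and 58.5 and 48.5 on standard medium. It was lowest in zone 4 on both media. AT2G30930 was high in zones 3 and 4 instead, with 25.1 and 19.0, 42.5 and 29.1, 591 and 469, and 1320 and 1059 under NaCl, against 77.8 and 42.1, 76.8 and 190, 2388 and 2468, and 2663 and 1909. Its difference reached -2.17 in zone 3. AT5G45480 showed a standard peak in zone 3, at 490 and 509, where NaCl arrays gave 144 and 90.9. All its NaCl arrays, up to 144, lay below all its standard arrays, from 157 up. AT5G67390, AT5G46230 and AT5G10850 averaged -1.40, -1.37 and -1.11. AT1G54120, AT3G53670 and AT5G18150 were the even ones, with ranges of 0.31, 0.32 and 0.32 between zones.

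The rule set no condition on differences between zones of 1 medium, and these were tested with limma. The rule did use the same arrays and favours high standard signals. The zone counts of the 37 genes are therefore not independent of how the genes were chosen. On standard medium 36 of the 37 genes differed between zones, against 81.5% of all tested probe sets; the exception was the low-signal gene AT3G46810 (adjusted p = 0.274). Under NaCl 33 did, against 82.2%. The 4 that did not pass were AT4G13130, AT2G28460, AT5G45480 and AT1G29180, of which 3 are C1 genes. Most probe sets on the array differ between zones in this way, so neither share is particular to the list.

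The zone of the highest level is given beside that of all tested probe sets. On standard medium 20 of the 37 genes were highest in zone 3, against 19.4% of all tested probe sets, while 4, 6 and 7 were highest in zones 1, 2 and 4, against 35.6%, 14.1% and 30.8%. From zone 1 to zone 2, 13 genes rose and 3 fell, with backgrounds of 15.5% and 19%; with each array centred on its median 20 rose and 1 fell, and 1 fell also without replicate 2 of standard zone 1 or either array of standard zone 2. From zone 2 to zone 3, 20 rose and 5 fell, with backgrounds of 26.4% and 27.8%; without replicate 3 of standard zone 2 or replicate 6 of standard zone 3, 3 fell. From zone 3 to zone 4, 6 rose and 22 fell, with backgrounds of 24% and 21%. The median steps of the 37 genes were 0.42, 0.90 and -0.90, and those of all tested probe sets were -0.12, 0.00 and 0.05. A gene with a high standard signal in a zone can meet the rule there more easily than one near the bottom of the scale, since no standard mean under 8.25 can give -0.6 with the added constant of 16; whether this shaped the zone order was not tested.

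A rise into zone 3 and a fall after it occurred together in 12 of the 37 genes on standard medium, against 6.07% of all tested probe sets, and in 6 under NaCl, against 6.16%. Under NaCl 13 genes rose and 1 fell from zone 1 to 2 (backgrounds 16.6% and 23.7%), 14 rose and 6 fell from zone 2 to 3 (27% and 30%), and 5 rose and 15 fell from zone 3 to 4 (20.2% and 18.4%). The difference between the media in these counts was not tested. The highest zone was the same on both media in 29 genes. The share over all tested probe sets was not computed, so nothing particular to these genes is read from this count.

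**Figure D4:**
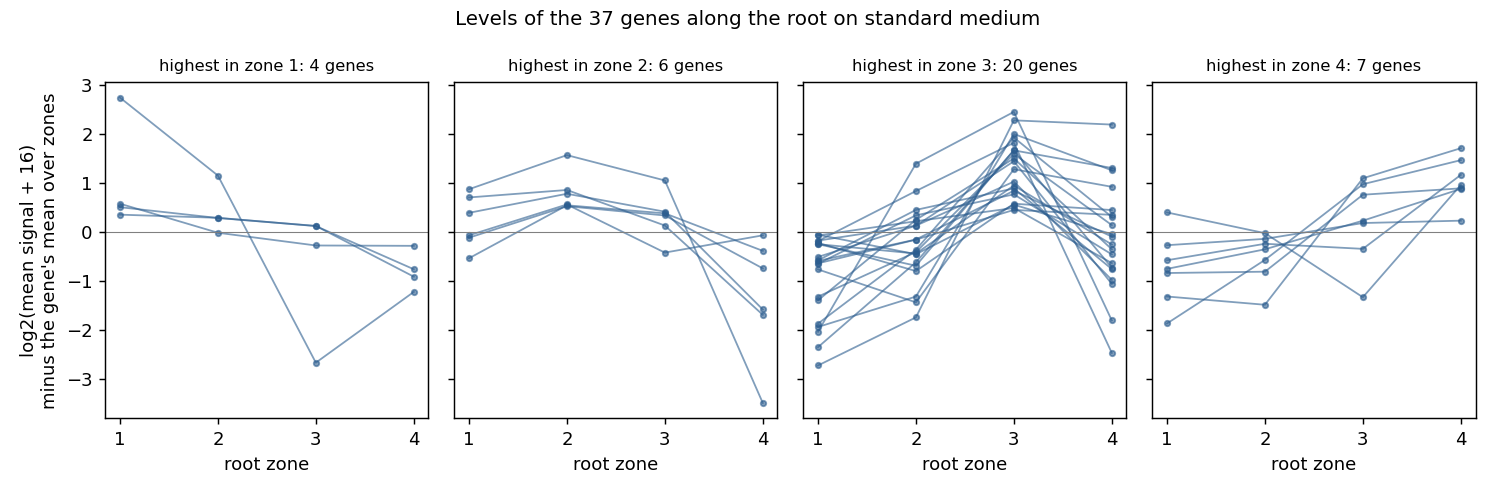
Levels along the root on standard medium, as log2(mean signal + 16) minus the gene's own mean over zones (vertical axis), in zones 1 to 4 (horizontal axis). Each line is 1 of the 37 genes, in 4 panels by the zone where it is highest; 20 of the genes are highest in zone 3, 7 in zone 4, 6 in zone 2 and 4 in zone 1.

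Of the 63 other C1 genes, 36 were highest in standard zone 3, against 19.4% of all tested probe sets. From zone 1 to zone 2, 23 rose and 3 fell (backgrounds 15.5% and 19%). From zone 2 to zone 3, 38 rose and 3 fell (26.4% and 27.8%), and from zone 3 to zone 4, 7 rose and 30 fell (24% and 21%). Whether their profile differs from that of other genes was not tested.

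Many of the 37 genes were lower in standard zone 4 than in standard zone 3, and in zone 3 the hair cell markers EXPA7 and EXPA18 stood above their standard level under NaCl. The part of these markers' cells in the differences was not tested. The rule was also run against the standard levels of neighbouring zones, a choice made after seeing the data. With the lower standard mean of a zone and the next zone from the tip as the reference, 16 of the 37 genes still met the rule. With the lowest of a zone and both its neighbours, AT2G28460, AT3G05320 and AT4G13130 did. Over all zones at once, the 8 NaCl arrays lay below the 8 standard arrays in 7 of the 37 genes, and in 12 of all 13513 probe sets of 1 gene. The rule favours such genes, so nothing is read from this count. The 7 were AT2G04500, AT2G28460 and AT4G13130 of the C1 family, and AT2G28720, AT3G05320, AT3G46280 and AT5G45480.

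None of the 37 genes lay within 2 protein-coding genes of another of them in the RefSeq annotation. Of their neighbours at that distance, 56 were tested, of which 15 (26.8%) were lower under NaCl on average and 4 were higher, against 15.3% and 15.6% of all tested probe sets. Those lower include the C1 genes AT3G06990, AT3G46800 and AT5G43030, already counted above. AT5G47930, AT5G47940 and AT5G47970, also lower, all lie near 1 gene, AT5G47950. The share is therefore not independent of the C1 count, nor are the neighbours independent of each other. The lowest of these neighbours were AT3G06990, the C1 gene next to AT3G07000 (-1.05, SE 0.16), AT4G35210 (-0.87, SE 0.15), AT5G47940 (-0.86, SE 0.09) and AT3G46270 (-0.80, SE 0.16), named after their values were seen. In the other direction AT5G18130, near AT5G18150, was higher by 1.22 (SE 0.21).

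Values ran on without a gap across the limit of the rule. The members nearest to the limit had smallest zone differences of -0.616 (AT4G02540), -0.603 (MSRB9) and -0.601 (AT3G46810). Just outside lay AT5G39970 at -0.598, AT5G58900 at -0.596 and AT2G40260 at -0.591.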

How the data were processed

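Signal intensities of 22810 ATH1 probe sets on 16 arrays were used as deposited; per the labels' protocols, RNA of about 15 pooled sections was amplified in 2 cycles, and per the submitters' processing notes MAS5 gave the values. Trimmed means (2% at each end) of 250.02 to 250.03 show that the deposited arrays share a scale. No detection calls, dates or batches were used here.

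Intensities were analysed as log2(signal + 16). The 17099 probe sets above 41.357 (the 40th percentile) in at least 2 arrays were fitted with limma 3.58.1 in R 4.3.3, with a mean per group and eBayes with trend (8 residual and 8.61 prior degrees of freedom). Tests were two-sided and adjusted by Benjamini-Hochberg over all 17099, with a threshold of 0.05. The procedure was tested on simulated data. Apart from planted changes, those data were flat over the groups, with independent noise and no lower bound on signals. They do not cover how low signals behave. The labels do not say that replicates came from separate cultures, so p-values may measure technical spread. With 2 arrays a group, their number limits the precision.

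The 37 genes and the gene lists were chosen with earlier results of these data known. All 37 are named. Gene names came from the probe annotation, families from general knowledge, and 6 of 36 markers were matched to a probe set in that annotation. Alternatives were an added constant of 1 or of 64, median centring, quantile normalization, other filters and thresholds, eBayes without trend, arrays of 1 medium, each array left out, and a replicate block. Deviations of arrays with the same replicate number correlated little between groups (-0.016 to 0.057 over all tested probe sets). Noise in low signals can hide a pairing there, so whether equal numbers mark the same roots stays unknown.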

Additional observations from a re-analysis of the deposited data

How the results depend on the processing

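The number of genes that met the rule was 37, and it moved with the scale and the limit: 59 with a pseudocount of 1, 16 with a pseudocount of 64, 65 with a threshold of -0.5 and 6 with a threshold of -1 (AT1G44050, AT2G04500, AT3G10720, AT4G13130, AT4G35200 and AT5G67390). It was 3 with the lowest standard mean of a zone and its neighbours as the reference and 16 with the lower of a zone and the next zone from the tip, both chosen after seeing the data. Without the condition on overlap it was 40. Quantile normalization gave 45 genes, 36 of them among the 37, and median centring gave 40, with 35 among the 37. Leaving out 1 array gave 32 to 45 genes for the rule, 35 to 36 of the 37 differing between standard zones, 30 to 32 between NaCl zones, 10 to 17 changed from standard zone 1 to 2 (10 without replicate 2 of standard zone 1), 23 to 26 from zone 2 to 3, and 23 to 28 from zone 3 to 4. Among the 73 other family genes it gave 38 to 42 lower and 2 to 5 higher under NaCl, against 42 and 4 with all arrays (2 higher without replicate 2 of zone 1 on either medium, replicate 1 of NaCl zone 2 or replicate 4 of standard zone 2); the cause was not tested. With a replicate block, possible only for the NaCl arrays and standard zone 1, which share numbers, 31 of the 37 genes differed between NaCl zones. The block could not be fitted for the standard zones or the mean salt difference, whose groups do not share numbers. With the other filters, scalings and eBayes settings tried and with the arrays of 1 medium alone, the total number of the 37 genes changed in each zone step stayed within 1.5 times its value, but its split by direction did not always. From standard zone 1 to 2 median centring gave 20 higher and 1 lower, against 13 and 3, and leaving out replicate 2 of standard zone 1 or either array of standard zone 2 also gave 1 lower. From zone 2 to 3 an added constant of 1, or leaving out replicate 3 of standard zone 2 or replicate 6 of standard zone 3, gave 3 lower, against 5. Of 740 recomputed mean differences of the 37 genes, 33 moved, all with another pseudocount, and none changed sign, the closest to 0 being -0.37. In 20 genes a NaCl mean lay below 41.357 in at least 1 zone, where the size of a difference depends on the added constant.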
